A study of Mus musculus with 2 samples.

Results

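DNA methylation was compared at 8 zinc-finger transcription factor genes, Tshz1, Tshz2, Tshz3, Zfpm1, Zfpm2, Zfhx3, Zfhx4 and Zbtb20. The comparison was between cells cultured and differentiated from 2 sorted populations of mouse adipose progenitors. Members in the data are those differentially methylated regions listed by the authors that overlap the RefSeq span of one of the genes. Each span was extended by 2 kb on each side. This gave 86 of the 28141 listed regions, and all 86 lay inside a gene span, none in a flank alone. The genes were chosen by the number, levels and directions of these same regions, so the numbers below describe them and no test is made.

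Whole-genome bisulfite sequencing was run on 1 library of CD137+ cells and 1 library of PDGFRα+ (CD140+) cells, both from adipose tissue of C57BL/6 mice. CD137, a member of the tumour necrosis factor receptor family, marks beige adipocyte precursors, and PDGFRα is a growth factor receptor of mesenchymal progenitors. Both populations were isolated by magnetic sorting from SAT or VAT, the labels' abbreviations for the fat depots, without a statement of which depot gave which library. After culture and adipogenic differentiation, both received dexamethasone, a synthetic glucocorticoid, at 1 µM, so neither library is an untreated control. With 1 library per group no difference has a replicate check, and depot, animal and cell type cannot be told apart. The read depth is unknown, so levels carry no interval.

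Levels are given as the methylated fraction of the cytosines in a region, from 0 to 1. In mammals methylation falls almost entirely on cytosines followed by guanine (CpG sites), and regulatory DNA in use by a cell type is commonly less methylated than the surrounding genome. Teashirt proteins (Tshz) are zinc-finger regulators of tissue patterning. Zfpm proteins, also called friend of GATA, bind GATA factors and recruit corepressors to them. Zfhx proteins carry many zinc fingers together with homeodomains, and Zbtb20 is a repressor with a BTB domain, known for silencing the alpha-fetoprotein gene in the liver.

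Most regions of these genes were less methylated in the PDGFRα+ library, and 8 of the 11 exceptions were in Zfhx3. Of the 86 regions, 75 (87.2%) were lower in PDGFRα+ and 11 were higher, where 77.7% of all listed regions were lower. Neighbouring regions of a gene are not independent, so no interval is given for this share. Without Zfhx3, 65 of 68 regions (95.6%) were lower. In the 75 lower regions the medians were 0.224 for PDGFRα+ and 0.760 for CD137+, against 0.261 and 0.820 in all 21870 lower regions listed. Their median difference of -0.503 was close to the -0.527 of all lower regions. In the 11 higher regions the median levels were 0.897 in PDGFRα+ and 0.378 in CD137+. All 8 genes held a region, where 29.5% of 21887 protein-coding genes did. Counted by gene, 7 were mostly lower, Zfhx4 was split evenly and none was mostly higher, where 70.4% of all protein-coding genes with a region were mostly lower, 21.6% mostly higher and 7.98% split. Every region was lower in 4 of the 8 genes, Tshz1, Tshz2, Zfpm1 and Zfpm2, and in 58.5% of all protein-coding genes with a region. Those genes had a median of 1 region. Of the 40 with at least 17 regions 4 were lower throughout, Tshz2 and Zfpm2 among them. Because the genes were chosen for their regions, nothing is read from these shares.

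**Figure D1:**
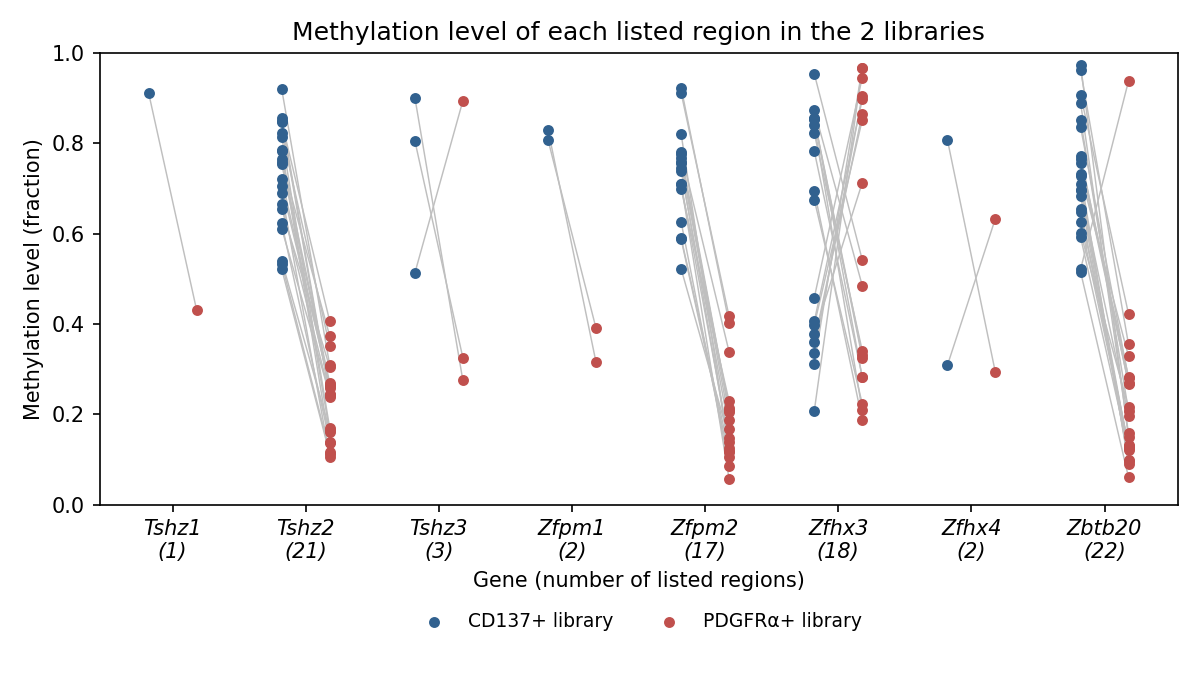
Methylation level (fraction, vertical axis) of every listed region of the 8 genes, with the CD137+ library on the left and the PDGFRα+ library on the right of each gene and a grey line joining the values of a region. In Tshz2 and Zfpm2 every PDGFRα+ level lies below every CD137+ level, while in Zfhx3 the lines cross, with 10 regions lower and 8 higher.

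Zbtb20 had the most regions of the 8 genes and almost all were lower in PDGFRα+. Its span of 759 kb on chromosome 16 (42875689 to 43634392, mm10) held 22 regions, of which 21 were lower. Over these 21 the level in PDGFRα+ ran from 0.0606 to 0.423 with a median of 0.158, and in CD137+ from 0.516 to 0.974 with a median of 0.729. In these 21 regions, taken as the lower ones, every PDGFRα+ level was below every CD137+ level. Over all 22 regions the levels of the libraries overlapped. Only regions called as different are listed, so such a separation is partly built in and nothing is read from it in any gene. The remaining region, 53 bases long at 43377026 to 43377078, had 0.938 in PDGFRα+ and 0.521 in CD137+.

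A lower region of Zbtb20 covered a start site of the gene. RefSeq's promoter table (GRCm38.p6, the assembly of mm10) places a start on the plus strand at 43247284, 372 kb into the span. The region at 43247155 to 43247564, of 410 bases and 13 counted cytosines, was at 0.158 in PDGFRα+ and at 0.890 in CD137+. Its difference of -0.732 ranked 734 among the 21870 lower regions. The sequence of the promoter window, from 250 bases before to 50 after that start, is shown because the region covers its bases 122 to 300. Capitals mark the CpG sites, and all 3 of them lie inside the region.
Zbtb20 window, chr16:43247034-43247333, plus strand: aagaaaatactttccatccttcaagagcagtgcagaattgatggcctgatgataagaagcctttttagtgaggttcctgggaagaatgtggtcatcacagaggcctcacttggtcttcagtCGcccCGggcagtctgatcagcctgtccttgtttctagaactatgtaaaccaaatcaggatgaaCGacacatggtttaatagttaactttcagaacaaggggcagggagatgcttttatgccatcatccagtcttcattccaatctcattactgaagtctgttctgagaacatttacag
With 3 CpG sites it is a CpG-poor window. The median over 32817 RefSeq promoter windows of the same length was 7, and 31.4% held 3 or fewer. Of all these windows 1.42% overlapped a listed region. The hexamer AGAACA, to which the glucocorticoid receptor binds as part of its response element, was searched on both strands after the sequence had been seen, and does not overlap the CpG sites here. It occurred 3 times in the window, beginning at bases 213, 281 and 288, all inside the region. At least 1 copy was present in 19.0% of all windows and at least 3 in 0.30%. The windows of Tshz2 and Zfhx3, which overlap no listed region, held 1 copy each, and those of Tshz3 and Zfpm1 held none. Because the hexamer was picked with the sequence in view, nothing is read from these shares. A match of letters is a description and not a binding site.

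Most regions of Zbtb20 lay after that start. Only 3 regions lay before it, 1 of them 10764 bases away at 43235458 to 43236520. That region was the longest of the 86 at 1063 bases, with 42 cytosines and levels of 0.196 in PDGFRα+ and 0.697 in CD137+. Before it, 324 kb of the gene held no listed region. After the start lay 18 regions, 17 of them lower, the first of them 86989 bases beyond the region that covers the start. The widest difference of all 86 regions was near the upper end of the gene, at 43590728 to 43591013, with 0.149 in PDGFRα+ and 0.974 in CD137+. It rests on 4 cytosines, the minimum among all listed regions. The next region, 1156 bases further on, had 0.0907 and 0.729. Other low PDGFRα+ levels were 0.0975 at 43572286 to 43572919 (0.709 in CD137+), with 25 cytosines, and 0.0999 at 43334554 to 43335035 (0.684).

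Zfpm2, which encodes friend of GATA 2, a GATA cofactor needed for heart development, was lower in PDGFRα+ in every listed region. Its span of 450 kb on chromosome 15 (40655042 to 41104592) held 17 regions. Levels in PDGFRα+ ran from 0.0569 to 0.417 (median 0.167) and in CD137+ from 0.522 to 0.923 (median 0.745). The levels of the libraries did not overlap, which is partly built in for listed regions of 1 direction. Over all regions of a gene, this median PDGFRα+ level was the lowest of the 8 genes, next to 0.177 in Zbtb20. The first 2 regions, of 4 and 24 cytosines, lay 1936 and 2797 bases from the lower end of the span. Their PDGFRα+ levels were 0.105 and 0.0849, and their CD137+ levels were 0.588 and 0.626. The widest difference, -0.703, was at 40913250 to 40913827 in the middle of the gene (0.117 in PDGFRα+ and 0.821 in CD137+). The lowest PDGFRα+ level, 0.0569 against 0.710 in CD137+, was at 40946274 to 40946600. From 40850189 to 40979642, where 10 of the regions lay, PDGFRα+ levels stayed at or below 0.211 except in the region at 40896374 to 40896487, with 0.417. The 120 kb below that stretch held none. The narrowest difference of the gene, -0.375, was at 40978737 to 40978833 (0.147 and 0.522).

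Zfpm1 encodes friend of GATA 1, the partner of GATA1 in red blood cell and platelet precursors. Its span of 56.0 kb on chromosome 8 (122281856 to 122337862) held 2 regions, both lower in PDGFRα+. At 122291017 to 122291396, 8876 bases after the listed start, PDGFRα+ had a level of 0.391 and CD137+ one of 0.808 over 33 cytosines. At 122313301 to 122313455 the levels were 0.316 and 0.831 over 4 cytosines. Per 100 kb of span there were 3.57 regions in Zfpm1 and 3.78 in Zfpm2, but the Zfpm1 value rests on only 2 regions. The PDGFRα+ levels of Zfpm1 lay in the upper part of the Zfpm2 range.

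Among the teashirt genes, Tshz2 had lower methylation in PDGFRα+ in listed regions from near its start to near its end. Its span of 440 kb on chromosome 2 (169632509 to 170072751) held 21 regions, all lower. Levels in PDGFRα+ ran from 0.107 to 0.407 (median 0.244) and in CD137+ from 0.522 to 0.920 (median 0.754), again without overlap. The regions began close to the start of the gene. The first 5 lay from 2668 to 9225 bases after the listed start, which is the lower end of the span. Over these 5 the PDGFRα+ levels were 0.113, 0.107, 0.407, 0.305 and 0.244, in order along the gene. The CD137+ levels of the same regions were 0.522, 0.690, 0.847, 0.655 and 0.611. The 2 regions with the largest absolute statistic were long. At 170017373 to 170018348, 976 bases with 32 cytosines, PDGFRα+ had a level of 0.245 and CD137+ one of 0.857. At 169853742 to 169854332, 591 bases with 29 cytosines, the levels were 0.239 and 0.848. These ranked 345 and 382 by absolute statistic among all 28141 regions. The widest difference was -0.646 at 169766091 to 169766577 (0.136 and 0.782). The last region, of 4 cytosines, lay near the upper end of the gene, at 170070264 to 170070394 (0.309 and 0.920).

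Tshz3 and Tshz1, the shorter teashirt genes, had few regions. Tshz3, known for roles in ureter muscle and in neurons, held 3 in its 75.4 kb on chromosome 7 (36698118 to 36773553). At 36714181 to 36714577 PDGFRα+ had a level of 0.276 and CD137+ one of 0.901. At 36717639 to 36717814 the levels were 0.326 and 0.806. The third, 2367 bases further on at 36720182 to 36720526, went the other way with 0.894 and 0.513 over 25 cytosines. The mean difference of Tshz3 was -0.241, and -0.00570 with regions weighted by their cytosines. Tshz1 held 1 region in its 76.1 kb on chromosome 18 (84011627 to 84087708), at 84015780 to 84015843. Over 4 cytosines, PDGFRα+ was at 0.432 and CD137+ at 0.912. Per 100 kb of span there were 4.77 regions in Tshz2, 3.98 in Tshz3 and 1.31 in Tshz1.

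Zfhx3 was the gene of this group with regions of both directions in number. It encodes ATBF1, a large homeodomain and zinc-finger factor known for its part in the circadian clock of the brain. Its span of 682 kb on chromosome 8 (108279311 to 108961636) held 18 regions, 10 lower and 8 higher in PDGFRα+. In the 10 lower regions PDGFRα+ levels ran from 0.188 to 0.542 and CD137+ levels from 0.675 to 0.954. In the 8 higher regions PDGFRα+ levels ran from 0.713 to 0.967 and CD137+ levels from 0.208 to 0.459. The mean difference over the gene, -0.0409 (SD 0.536 over 18 regions), therefore describes neither kind of region.

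The directions were interleaved along Zfhx3. Of its 17 pairs of neighbouring regions 7 changed direction. Zbtb20, with 1 higher region, could have at most 2 changes and had 2 in 21 pairs. Tshz2 and Zfpm2, with no higher region, could have no change. Such numbers are bounded by the direction counts, so nothing is read from comparing the genes. The first 5 regions from the lower end were all lower, and the last 3 were all higher. Of the 9 regions before the start that the promoter table lists, at 108714644, 6 were lower, and of the 9 after it 4 were lower. At the closest change of direction, a region at 108590558 to 108590716 had 0.542 in PDGFRα+ and 0.954 in CD137+. The next one, 4879 bases away at 108595596 to 108595790, had 0.967 and 0.311. The widest difference in the higher direction was in the last region, 108939505 to 108939610, with 0.967 in PDGFRα+ and 0.208 in CD137+. Its difference of 0.759 ranked 60 among the 6271 higher regions listed. The widest in the lower direction was at 108433501 to 108433896 (0.209 and 0.840). In all, 13 protein-coding genes with a region had 8 or more higher ones. Zfhx3, with exactly 8, ranked 6 by that number, ties counted at the best rank. The genes were chosen for their regions, so nothing is read from this rank.

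Zfhx4, a paralogue of Zfhx3, held 2 regions of opposite direction in 198 kb on chromosome 3 (5218218 to 5415861). The region 3347 bases from the lower end, at 5221565 to 5221644, had 0.633 in PDGFRα+ and 0.309 in CD137+. It was 80 bases long with 13 cytosines, the densest of the 86. The region at 5329726 to 5329915 had 0.293 and 0.808. There were 1.01 regions per 100 kb in Zfhx4 and 2.64 in Zfhx3.

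**Figure D2:**
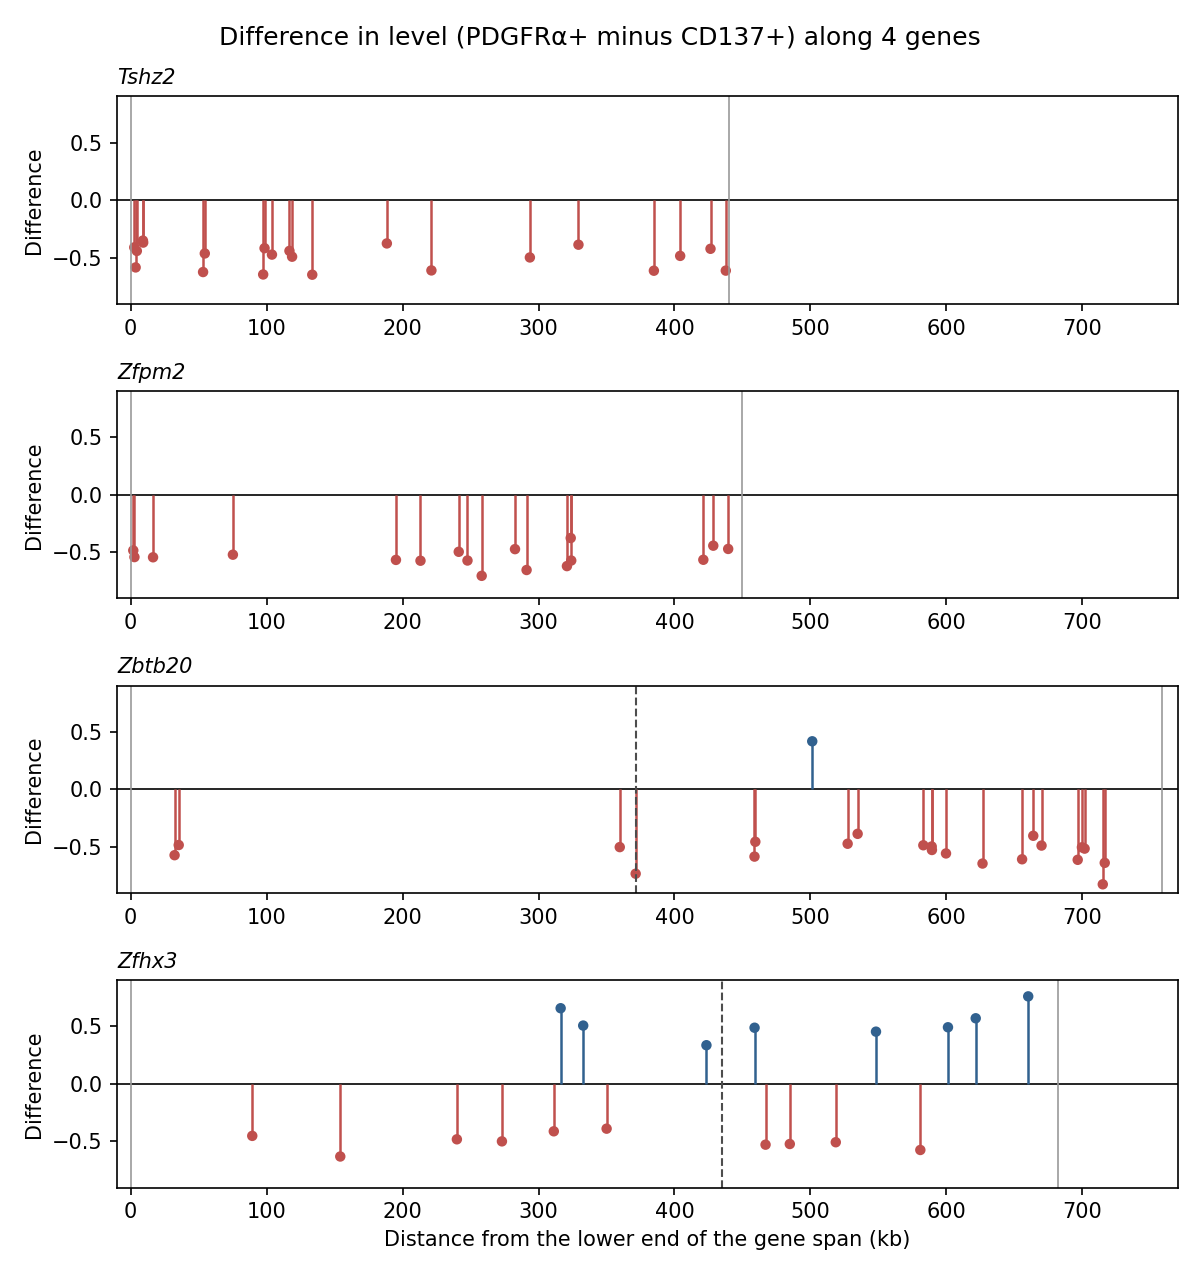
Difference in methylation level (PDGFRα+ minus CD137+, vertical axis, fraction) of each listed region against its distance from the lower end of the gene span in kb, for Tshz2, Zfpm2, Zbtb20 and Zfhx3. Grey lines mark the ends of each span and dashed lines the listed start where it lies inside the span. Tshz2 and Zfpm2 show only negative differences, Zbtb20 has 1 positive among 22, and Zfhx3 has 8 positive among 18.

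The 4 genes with spans of 400 kb or more gave 78 of the 86 regions, 69 of them lower, and the 4 under 200 kb gave the other 8. Long genes have more room for regions, so the numbers were also set against length. The 4 long members held 2.64 to 4.77 regions per 100 kb, and the median of all 352 protein-coding genes of 400 kb or more was 0.873. Over the 40 protein-coding genes with at least 17 regions, a number that all 4 long members reach, the median was 4.48 per 100 kb. By number of regions Zbtb20 ranked 9, Tshz2 11, Zfhx3 24 and Zfpm2 27 among 21887 protein-coding genes, ties counted at the best rank. The genes were chosen by their number of regions, so nothing is read from these densities and ranks.

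**Figure D3:**
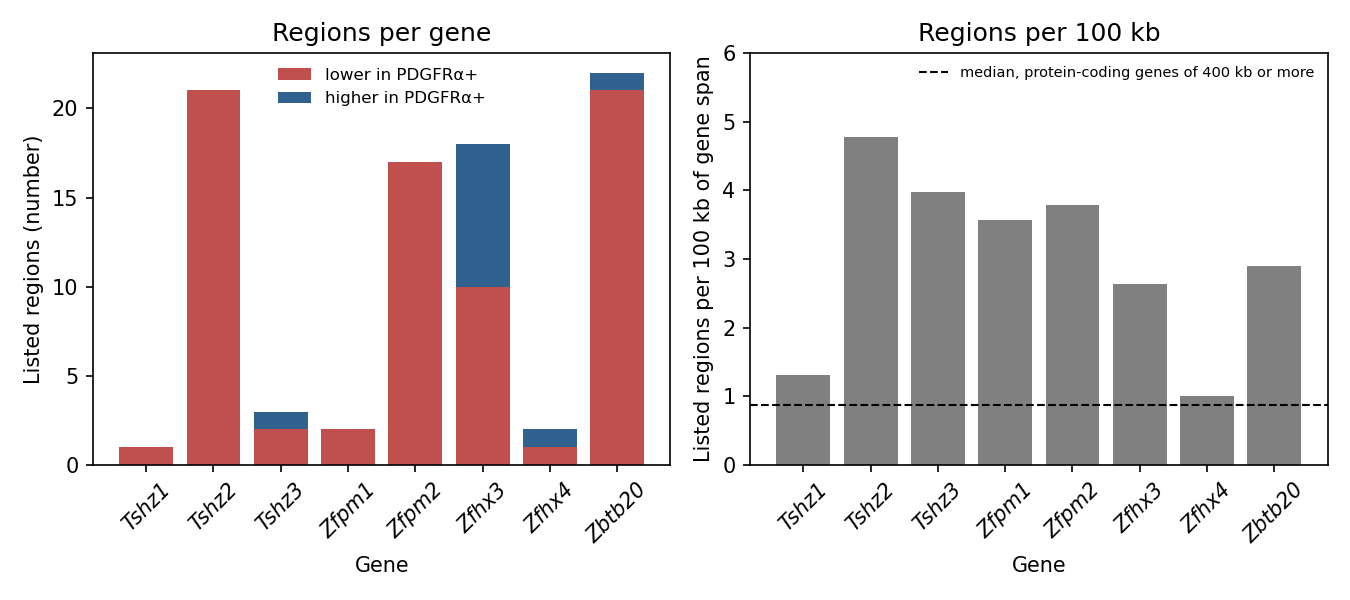
Left, number of listed regions per gene, stacked by direction. Right, listed regions per 100 kb of gene span, with a dashed line at the median of protein-coding genes of 400 kb or more (0.873). That line applies to Tshz2, Zfpm2, Zfhx3 and Zbtb20, whose bars stand at 2.64 to 4.77. The genes were chosen by their number of regions, so nothing is read from the distance to the line.

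Pooled over these genes, lower and higher regions differed in shape, but 8 of the 11 higher regions were in Zfhx3. The 75 lower regions had a median length of 327 bases and 3.92 counted cytosines per 100 bases. The 11 higher regions had a median of 106 bases and 7.25 cytosines per 100 bases. In all listed regions the medians were closer, 222 bases and 4.51 for lower against 193 bases and 5.06 for higher. Within Zfhx3 the median lengths were 383.5 bases for lower and 150.5 for higher regions. In Tshz3 the only higher region, of 345 bases, was longer than the lower median of 286.5. No higher region of the 8 genes exceeded 345 bases, while the longest lower one reached 1063. Differences of at least 0.6 in size were found in 17 lower (22.7%) and 2 higher regions (18.2%), near the 24.7% and 18.8% of all listed regions. A PDGFRα+ level under 0.1 occurred in 6 regions, 4 in Zbtb20 and 2 in Zfpm2. The lowest in Zbtb20, 0.0606, rests on 4 cytosines. The share of all listed regions under 0.1 was not counted, so nothing is read from this number. All these values come from the same 2 libraries.

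**Figure D4:**
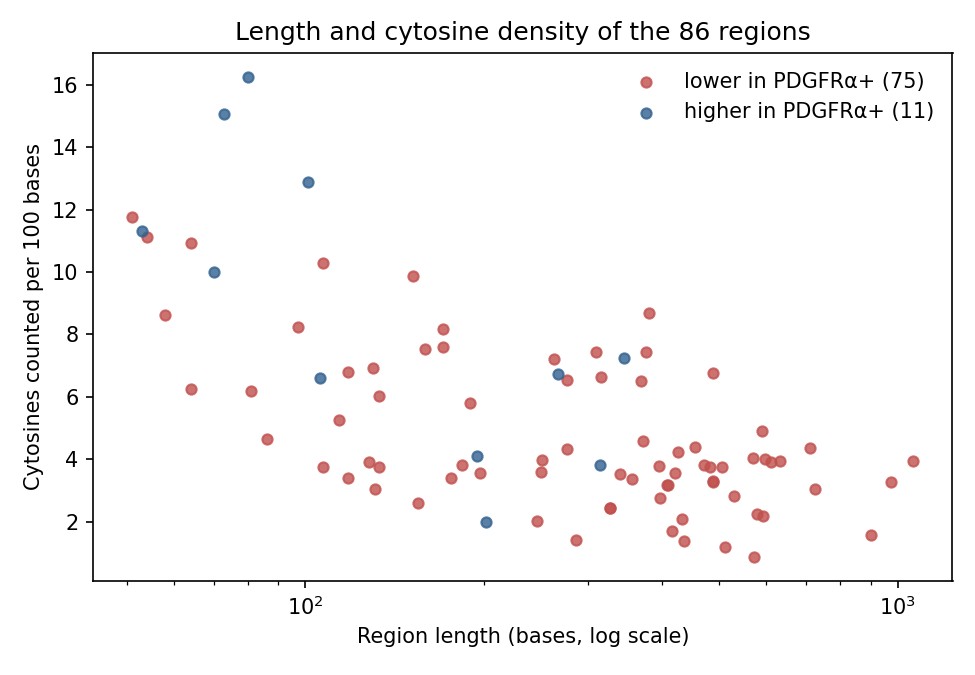
Length (bases, log scale, horizontal axis) and counted cytosines per 100 bases (vertical axis) of the 86 regions, coloured by direction. The 11 higher regions are all at or below 345 bases, and the lower regions extend to 1063 bases.

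Just outside the 2 kb flank, 2 long regions of the higher direction lay next to Tshz3 and Zfhx4. The one 3167 bases below Tshz3, on the upstream side of its listed start, was 998 bases long with 50 cytosines and levels of 0.875 in PDGFRα+ and 0.250 in CD137+. It lies in the span of Gm36722, a neighbouring gene model. The one 3019 bases below Zfhx4 was 1002 bases long with 32 cytosines and levels of 0.756 and 0.182, in the span of the non-coding gene 2700069I18Rik. On the inside, the member regions nearest to a gene end were 1936 bases within Zfpm2 (0.105 and 0.588) and 2357 bases within the upper end of Tshz2 (0.309 and 0.920). Each of these rests on 4 cytosines. Over the nearest regions below and above each of the 8 genes, 12 of 16 were lower, with 77.7% over all listed regions. The other higher ones were 18539 bases below Zfpm1 (0.859 and 0.358) and 74374 bases above Tshz2 (0.818 and 0.387). Nearest to Zbtb20 was a region 95535 bases below it (0.0774 and 0.861).

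No other protein-coding gene lay within 2 kb of a member region, but 10 of the 86 lay in or within 2 kb of 8 other genes, 7 of them long non-coding RNA genes and 1 a pseudogene. A region of Zfhx3 at 108552409 to 108553119, with 31 cytosines, lay 133 bases from the span of Lncbate1, a long non-coding RNA known for its enrichment in brown fat. PDGFRα+ was at 0.284 and CD137+ at 0.783 there. In Tshz2 the last region overlapped A630075F10Rik and another lay 65 bases from AY702102 (0.374 and 0.760). In Zbtb20 the first 2 regions overlapped Gm19522 (0.125 and 0.696, then 0.283 and 0.766). Such regions cannot be assigned to one gene over the other. The promoter windows of Tshz2, Tshz3, Zfpm1 and Zfhx3, with 2, 33, 37 and 21 CpG sites, held no listed region, and Tshz1, Zfpm2 and Zfhx4 were not matched in that table.

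In related zinc-finger genes the share of lower regions lay between the 77.7% of all listed regions and the 87.2% of the 8 genes. Of 22 such genes, chosen with earlier results of these data known, 11 had a region (50.0%, with 29.5% over all protein-coding genes). Of these 10 were mostly lower and 1 was split, and 53 of their 63 regions (84.1%) were lower, with 70.4% of genes and 77.7% of regions lower over the whole table. The other 11 had no region. Zbtb7c had 17 regions with 14 lower, and a mean of 0.338 for PDGFRα+ and 0.713 for CD137+. Zfp521, a paralogue of the preadipocyte factor gene Zfp423, had 11 with 10 lower (0.335 and 0.777). Zbtb16, which encodes the repressor PLZF, had 10 of 10 lower (0.264 and 0.830), and Zfp423 itself had 8 with 7 lower (0.317 and 0.666). The split gene was Bcl11b, a T-cell regulator gene named after its values were seen, with 3 lower and 3 higher. The median over these genes of their mean difference was -0.418, against -0.473 for the 8 genes and -0.445 for all protein-coding genes with a region.

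The partners that Zfpm proteins bind were mixed. Of 23 genes for GATA factors, nuclear receptors and corepressors, 7 had a region, and this share of 30.4% was near the 29.5% of all protein-coding genes. Of these, 3 were mostly lower and 4 mostly higher, where 70.4% and 21.6% of all protein-coding genes with a region were. Of their 16 regions 10 (62.5%) were lower, with 77.7% over the whole table. Ctbp2, a corepressor gene, had 5 regions with 4 lower (mean of 0.368 for PDGFRα+ and 0.717 for CD137+). Gata6 was lower in 4 of 4 regions (0.193 and 0.762), the same direction as Zfpm1 and Zfpm2. Gata4 had 3 regions with 2 higher (0.514 and 0.365). Gata3, which restrains adipocyte differentiation, was higher in its only region (0.822 and 0.284). The other genes, named after their values were seen, had 1 region each. Gata2, with the same known role as Gata3, was higher (0.855 and 0.498), as was Mbd2, which encodes a methyl-CpG binding protein (0.964 and 0.466), while the corepressor gene Mta3 was lower (0.403 and 0.937). The median of the mean differences was 0.149.

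The table lists methylation and not expression, so the labelled cell type could not be checked by marker levels. Pdgfra had 1 region, with 0.210 in PDGFRα+ and 0.769 in CD137+, and Tnfrsf9, the gene of CD137, had none. Genes that mark other cell types also held regions, to be read beside the 22.3% of all listed regions that were higher, the 77.7% that were lower and the 29.5% of protein-coding genes with a region. Of 10 leukocyte markers 8 had a region, and 23 of their 29 regions were higher in PDGFRα+. Of 6 endothelial markers all had a region, with 12 of 19 higher. Of 5 mesothelial markers 4 had a region, with 12 of 13 lower, and of 5 mural markers 4, with 5 of 5 lower. A difference in the mix of cells between the libraries cannot be told apart from a difference within cells, and its part in the levels of the 8 genes was not tested.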

How the data were processed

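Bisulfite sequencing of the whole genome gave 1 CD137+ and 1 PDGFRα+ library, assigned to groups by their titles. The authors' table of 28141 regions was used. Per the file headers, it holds for each region the methylated fraction in each library, the PDGFRα+ (CD140) fraction minus the CD137+ fraction, the number of cytosines and an area statistic. The authors' area statistic is a score of no fixed range, and the fractions run from 0 to 1. Per the submitters' processing notes, positions refer to mm10. Aligner, callers, thresholds and coverage were not given in the sources used here. Regions not called as different are not listed, so shares describe listed regions.

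Regions were assigned to RefSeq gene spans (GRCm38.p6) with 2 kb on each side. Exons, introns and UTRs were not separated. Starts in the table count from 0 and are printed here counted from 1. The 8 genes and all lists (71 symbols, all matched) were chosen with earlier results of these data known. Named genes are all members, the sorting-marker genes, up to 4 genes with the most regions from the related and the partner lists (ties by the larger absolute mean difference), and genes sharing a region. Genes outside this rule are marked as named after their values were seen. Overlaps were checked by brute force for 300 genes, with 0 differences. Alternatives covered minimum differences, cytosines and statistics, flanks, the overlap rule, merging and weighting. Promoter sequences and strands are from RefSeq. The tools were scipy 1.17.1, pandas 2.3.3 and numpy 2.4.6 under Python 3.11.15, with matplotlib 3.10.9 for figures.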

Additional observations from a re-analysis of the deposited data

How the results depend on the processing

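The share of lower regions ran from 85.2% to 90.7% and the median difference from -0.572 to -0.489 over the alternatives tried for them. The number of mostly lower genes lay between 5 and 7, not always the same genes: with differences of at least 0.5, Tshz1 has no region and Zfhx4, split in the reported setting, is lower. The number of regions fell from 86 to 43 with differences of at least 0.5, to 50 with at least 10 cytosines and to 54 with statistics above the median, since each setting keeps fewer regions. With 10 kb flanks 1 gene, Zfhx4, became mostly higher and its mean difference turned from -0.0948 to 0.128, because the higher region 3019 bases below it is then counted. Tshz3 was split there, with a mean of -0.0248 in place of -0.241, as the higher region 3167 bases below it is counted, and also split, at -0.122, with at least 10 cytosines or larger statistics. Tshz1 had no value under 4 settings (differences of at least 0.5, at least 5 or 10 cytosines, larger statistics), as its only region is dropped. No paired analysis was possible because each group has 1 library. Read depth is unknown, and regions of 4 cytosines carry the least information.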

Other observations

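The edges of the listed regions were set against RefSeq promoter sequences over the whole table. All 244 region starts inside a promoter window fell on a cytosine of a CpG site, on either strand, when starts are counted from 0, and 81 did when counted from 1. All 233 region ends inside a window fell on such a cytosine. In the 88 regions wholly inside a window, the deposited number of cytosines never exceeded the CpG cytosines of both strands, and it equalled them in 43. The counted cytosines are thus consistent with CpG cytosines counted on each strand separately, so a region of 4 cytosines may hold as few as 2 CpG sites.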
